A study of Mus musculus with 10 samples.

Results

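Contactins and their relatives are adhesion molecules of the immunoglobulin superfamily, and 10 of their genes were followed here in mouse oocytes whose basonuclin had been knocked down: the contactin genes Cntn1, Cntn3, Cntn4, Cntn5 and Cntn6, the L1-type genes L1cam, Chl1 and Nrcam, and the neural cell adhesion molecule genes Ncam1 and Ncam2. They were taken by gene symbol from the platform annotation, which gave them 29 of the 45101 probe sets in the value table. Cntn6 was chosen by its measured values, the large decrease in this same comparison, so its difference is given as a description with no test, while the other 9 genes were added as its relatives. The brightest probe set over all 10 samples stands for each gene, and every other probe set is described beside it.

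The study compared 6 samples of oocytes from mice that carry an RNA interference transgene against basonuclin (Bnc1), a zinc finger transcription factor, with 4 samples from non-transgenic mice. All were fully grown oocytes at the germinal vesicle stage, and each sample held RNA of 50 oocytes from a single mouse, measured on 1 array. The design text says that the transgene acts in oocytes only. The promoter that drives it, the number of transgenic lines, the strain and the age are not given in the sources used here. Samples are called by group and by the replicate number of their label, which is 4, 5, 6, 11, 12 or 13 for RNAi-transgenic and 1, 2, 7 or 8 for non-transgenic oocytes.

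Contactins are held in the outer leaflet of the cell membrane by a lipid anchor and have no cytoplasmic part, so they act through partners in the same membrane or on a neighbouring cell, among them contactin-associated proteins, receptor tyrosine phosphatases and proteins of the amyloid precursor family. L1-type proteins span the membrane and bind ankyrin, which ties them to the spectrin skeleton, and the NCAM proteins occur in lipid-anchored and membrane-spanning forms. All are known mainly from the nervous system, where they guide axons and sort contacts between neurons, and mice that lack Cntn6 have impaired motor coordination.

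Cntn6, Chl1, Cntn4 and Cntn3 are neighbours in the genome. By the RefSeq gene order (GRCm38.p6) they follow each other on chromosome 6 as Cntn3, Chl1, Cntn6 and Cntn4, with no other protein-coding gene between them. Promoter windows from RefSeq (GRCm38.p6) are shown for Cntn6 and for the gene on each side of it, because the 3 genes lie together and Cntn6 is the one noted for its decrease. Each is the 250 bases before a transcription start, written 5′ to 3′, with the motif CANNTG (the E-box, which the oocyte factor FIGLA binds as a dimer) in capitals, overlapping matches included.
Cntn6, chr6:104492794-104493043, plus strand: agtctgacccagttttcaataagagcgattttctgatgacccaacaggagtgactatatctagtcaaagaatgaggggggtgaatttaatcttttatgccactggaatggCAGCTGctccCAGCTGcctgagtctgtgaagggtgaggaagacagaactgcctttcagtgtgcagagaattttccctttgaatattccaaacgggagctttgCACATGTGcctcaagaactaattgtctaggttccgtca
Cntn4, chr6:106118515-106118764, plus strand: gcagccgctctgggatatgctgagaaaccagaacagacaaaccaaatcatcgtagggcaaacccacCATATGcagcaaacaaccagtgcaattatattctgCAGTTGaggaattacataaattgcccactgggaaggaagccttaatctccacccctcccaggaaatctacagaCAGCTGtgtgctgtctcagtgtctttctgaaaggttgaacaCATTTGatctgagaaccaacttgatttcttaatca
Chl1, chr6:103510626-103510875, plus strand: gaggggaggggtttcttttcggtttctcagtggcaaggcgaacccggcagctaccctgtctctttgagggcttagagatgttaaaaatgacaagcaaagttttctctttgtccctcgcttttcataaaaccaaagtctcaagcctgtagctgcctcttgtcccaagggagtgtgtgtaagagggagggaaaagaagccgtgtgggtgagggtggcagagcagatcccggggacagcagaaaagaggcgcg
The Cntn6 window holds 4 matches to CANNTG, a pair of which overlap, the Cntn4 window holds 4 and the Chl1 window holds 0. Of 32851 such windows in the RefSeq table, 66.2% hold at least 1 match and 3.84% at least 4. The Cntn6 and Cntn4 windows also hold 1 match each to TAATTA or TAATTG, the element known for the oocyte factor NOBOX, counted on both strands, which 11.3% of all windows hold, and the Chl1 window holds 0. CpG dinucleotides number 3, 2 and 8 in the windows of Cntn6, Cntn4 and Chl1, against a median of 6 over all windows. Windows were found for 9 of the 10 genes. Cntn4 has a further start with 1 match to CANNTG and 12 CpG. These matches describe the letters only.

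The knockdown itself was seen in every sample. Bnc1 was at an intensity of 12.8 to 19.2 in the 6 transgenic samples and of 2696 to 3466 in the 4 non-transgenic samples. Array medians lay between 17.5 and 20.1. No pair of arrays held identical values. Non-transgenic replicate 1 stood a little apart, with rank correlations of 0.989 to 0.992 with the other non-transgenic arrays. Differences below are log2 intensity, transgenic minus non-transgenic, from a limma fit of 10590 genes, with p-values adjusted over all of them by Benjamini-Hochberg. A gene entered the fit when its brightest probe set was above log2 5, an intensity of 32, in at least 4 arrays.

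Of the 10 genes, 5 passed this filter: Cntn6, Cntn4, Cntn1, Nrcam and L1cam. Chl1, Cntn5, Ncam1 and Ncam2 stayed below log2 5 on every array with all their probe sets, and Cntn3 exceeded it on 3 arrays only. Cntn6 passed through the non-transgenic group and so had to differ: 1 of 6 transgenic and 4 of 4 non-transgenic samples exceeded the level. Nearest to the limit were Cntn6, above the level on 5 arrays, just inside it, and Cntn3 just outside. The other 4 genes were above log2 5 on all 10 arrays.

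**Figure D1:**
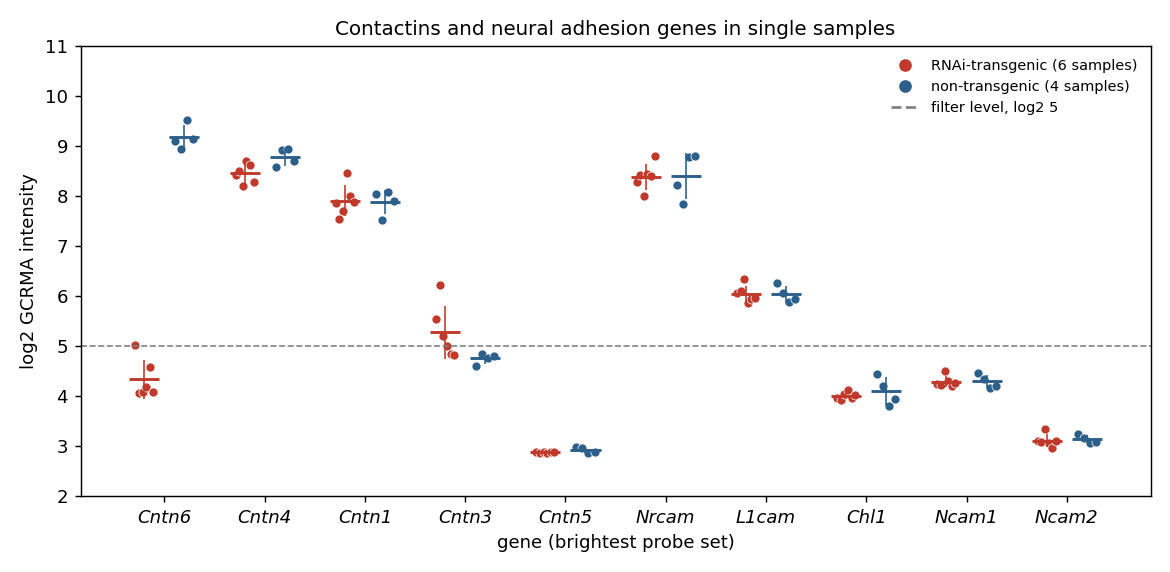
Log2 GCRMA intensity of the brightest probe set of each of the 10 genes. Points are single samples, RNAi-transgenic left and non-transgenic right of each tick, horizontal bars are means, vertical bars are SD, and the dashed line is the filter level. Cntn6 lies between 4.06 and 5.02 in transgenic and between 8.94 and 9.52 in non-transgenic samples, while the groups of all other genes overlap.

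Cntn6 encodes contactin 6, also called NB-3, which in mouse is known as a ligand of Notch1 on glial precursors. Its single probe set had intensities of 32.5, 16.7, 16.9, 18.2, 23.8 and 17 in transgenic replicates 4, 5, 6, 11, 12 and 13, against 549.5, 491.2, 732.4 and 560.6 in non-transgenic replicates 1, 2, 7 and 8. All transgenic values were thus far below all non-transgenic ones. The 5 lowest transgenic values were close to the median of their arrays, where GCRMA leaves little order between probe sets. Transgenic replicate 4 was the highest of its group and the only one above the filter level. On the log2 scale Cntn6 was at 4.34 ± 0.39 (SD, n = 6) in transgenic and 9.17 ± 0.24 (SD, n = 4) in non-transgenic oocytes. The difference was -4.84 as deposited, and with transgenic values below log2 5 set to that level Cntn6 was at least 18.0-fold lower in transgenic oocytes. A gap of 3.92 separated the lowest non-transgenic from the highest transgenic sample, and the spread within a group was 0.96 in transgenic and 0.58 in non-transgenic oocytes. In this comparison the groups did not overlap in the lower direction for 13.1% of genes. In samples of pooled oocytes, fewer oocytes that hold the mRNA and less mRNA in each cannot be told apart.

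The replicate numbers fall into a low range, 4 to 6 and 1 to 2, and a high range, 11 to 13 and 7 to 8, which no label calls batches. Cntn6 averaged 4.39 in transgenic and 9.02 in non-transgenic samples of the low range, and 4.28 in transgenic and 9.32 in non-transgenic samples of the high range. The difference was -4.63 in the low and -5.04 in the high range. Since every transgenic value lay below every non-transgenic one, any subset of the samples had to show this decrease. The ranges are therefore a description and add no support.

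None of the 4 other genes in the fit passed the threshold in limma (0 of 4 at adjusted p below 0.05, 1 of 4 at an unadjusted p below 0.05). Of all genes tested, 37.2% passed, and 4869 of 10590 had an unadjusted p below 0.05. Their groups overlapped in 4 of 4 cases, while 28% of all genes had groups that did not overlap. Taken singly, 0 of their 6 probe sets past the filter were called, against 34% of all probe sets, and with no filter 0 of the 9 genes other than Cntn6 were called, against 20.6% of all genes. These shares lay below the background, and with so few genes nothing further is read from them. Cntn4 came nearest to the threshold. Its product, contactin 4, is an axonal protein that binds amyloid precursor family members. Cntn4 was at log2 8.42, 8.51, 8.21, 8.70, 8.62 and 8.28 in transgenic replicates 4, 5, 6, 11, 12 and 13, against 8.57, 8.93, 8.93 and 8.71 in non-transgenic replicates 1, 2, 7 and 8. The groups overlapped only through non-transgenic replicate 1, which lay below transgenic replicates 11 and 12. The means were 8.45 ± 0.19 (SD, n = 6) in transgenic and 8.79 ± 0.18 (SD, n = 4) in non-transgenic oocytes, a difference of -0.33 with a 95% interval of -0.60 to -0.06 (limma adjusted p = 0.0521). An exact permutation test of the sample labels, two-sided, gave p = 0.0333. Cntn4 differed by -0.37 in the low and by -0.29 in the high range of replicate numbers. Its call depended on the setting: limma adjusted p was 0.0311 without non-transgenic replicate 1, 0.0325 without transgenic replicate 11 and 0.0466 without transgenic replicate 12, with a range of 0.0311 to 0.137 over all samples left out in turn. It was 0.0238 after quantile normalization. A further Cntn4 probe set was below the level everywhere, at 3.36 in transgenic and 3.50 in non-transgenic oocytes.

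Cntn1 encodes contactin 1, a component of the contacts between axon and myelin. Its brightest probe set ran from 7.55 to 8.46 with a median of 7.86 in transgenic samples and was 8.03, 7.53, 8.07 and 7.89 in non-transgenic replicates 1, 2, 7 and 8. The groups covered nearly the same range. The difference was 0.02 with a 95% interval of -0.36 to 0.40 (limma adjusted p = 0.932, exact permutation p = 0.919). A further probe set was as bright, from 7.52 to 8.07 with a median of 7.67 in transgenic samples, and at 8.56, 7.65, 7.82 and 7.45 in the non-transgenic ones, a difference of -0.16 (exact permutation p = 0.538). Which sample was highest differed between the probe sets. The first put transgenic replicate 11 on top and the other non-transgenic replicate 1. The dimmest was at 3.10 in transgenic and 3.13 in non-transgenic oocytes.

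Cntn3 and Cntn5 encode further axonal contactins. The brightest Cntn3 probe set was at 5.54, 6.22, 5.20, 4.99, 4.85 and 4.83 in transgenic replicates 4, 5, 6, 11, 12 and 13, against 4.60, 4.84, 4.77 and 4.80 in non-transgenic replicates 1, 2, 7 and 8. Only transgenic replicates 4, 5 and 6, the low range of numbers, were above log2 5, and the difference was 0.93 in the low and 0.11 in the high range. This probe set did not pass the filter and was not tested there. With no filter the difference was 0.52 (limma adjusted p = 0.171). Its name ends in _x_at, which marks probes that can bind other transcripts, and the other Cntn3 probe set was at 4.35 in transgenic and 4.37 in non-transgenic oocytes. Cntn5 was at 2.88 in transgenic and 2.92 in non-transgenic oocytes.

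**Figure D2:**
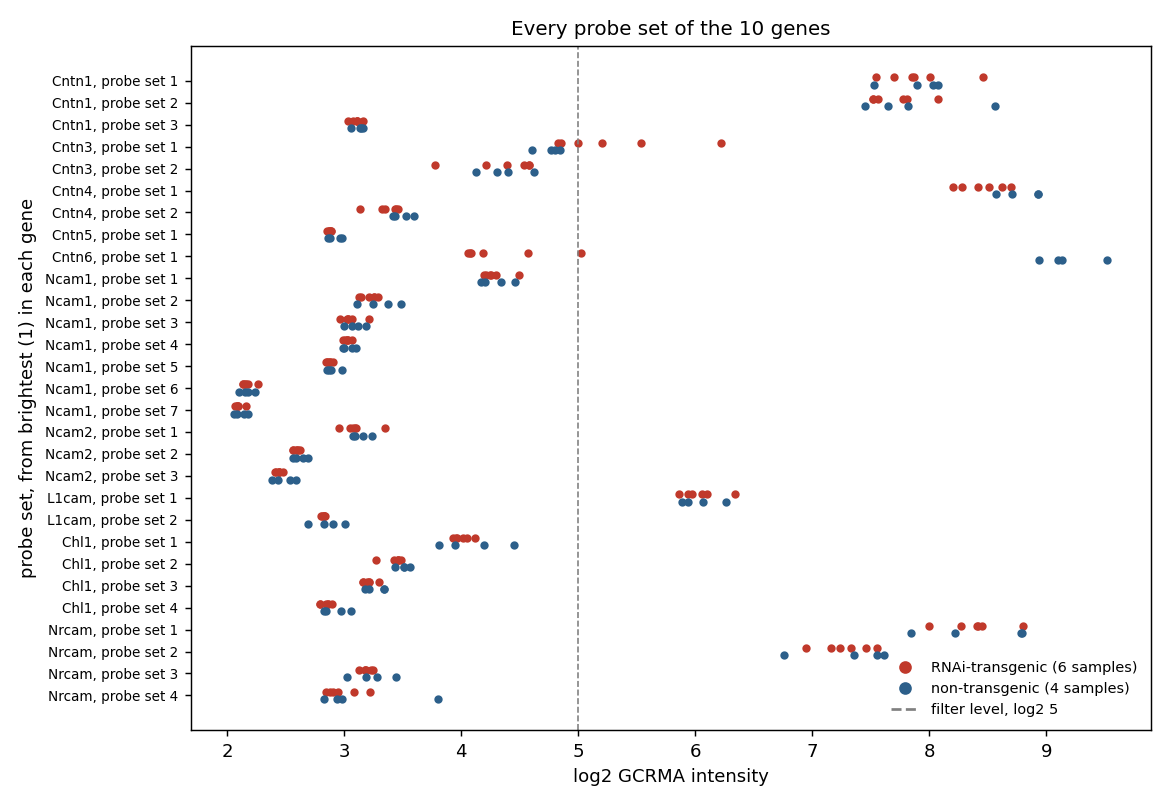
Log2 GCRMA intensity of all 29 probe sets, numbered from the brightest within each gene. Points are single samples, RNAi-transgenic above and non-transgenic below in each row, and the dashed line is the filter level. The 7 probe sets past the filter belong to Cntn1, Cntn4, Cntn6, L1cam and Nrcam, and Cntn6 alone has all non-transgenic samples far above the level and 5 of 6 transgenic samples below it.

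Among the L1-type genes, Nrcam and L1cam were measured and Chl1 was not above the level. Nrcam encodes a protein that gathers sodium channels at nodes of myelinated axons. It ran from 8.00 to 8.80 with a median of 8.41 in transgenic samples and was 8.22, 7.85, 8.78 and 8.79 in non-transgenic replicates 1, 2, 7 and 8. Non-transgenic replicate 2 was the lowest of all samples, and the non-transgenic group spread more widely than the transgenic one. The difference was -0.02 with a 95% interval of -0.47 to 0.43 (limma adjusted p = 0.955, exact permutation p = 0.981). It was 0.20 in the low and -0.24 in the high range of numbers, so its sign turned between them. The next Nrcam probe set, from 6.94 to 7.55 in transgenic samples and at 7.56, 6.76, 7.35 and 7.61 in non-transgenic ones, gave -0.04 (exact permutation p = 0.819), again with replicate 2 lowest. The remaining Nrcam probe sets were below the level everywhere, at 3.19 and 2.98 in transgenic and 3.23 and 3.14 in non-transgenic oocytes.

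L1cam encodes the founding member of the L1 family. It was dim and even, from 5.87 to 6.34 with a median of 6.01 in transgenic samples and at 6.26, 6.07, 5.88 and 5.94 in non-transgenic replicates 1, 2, 7 and 8. The difference was 0.01 with a 95% interval of -0.24 to 0.25 (limma adjusted p = 0.971, exact permutation p = 0.948). These intervals exclude a 2-fold change in intensity of Cntn1, Cntn4, Nrcam or L1cam in either direction, but not small ones. They do not bound a change in mRNA where values are close to background, as for L1cam. A further L1cam probe set was below the level everywhere, at 2.82 in transgenic and 2.86 in non-transgenic oocytes. Chl1, known as close homolog of L1, was at most at 4.12 in transgenic and 4.45 in non-transgenic samples over its 4 probe sets.

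Ncam1 and Ncam2 encode adhesion molecules that bind their own kind, and Ncam1 carries polysialic acid in the developing brain. The 7 probe sets of Ncam1 were at or below 4.50 in transgenic and 4.46 in non-transgenic samples. The 3 of Ncam2 were at or below 3.35 in transgenic and 3.24 in non-transgenic samples. The arrays carry no detection flag, so these genes are below the level used here, not shown to be absent.

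**Figure D3:**
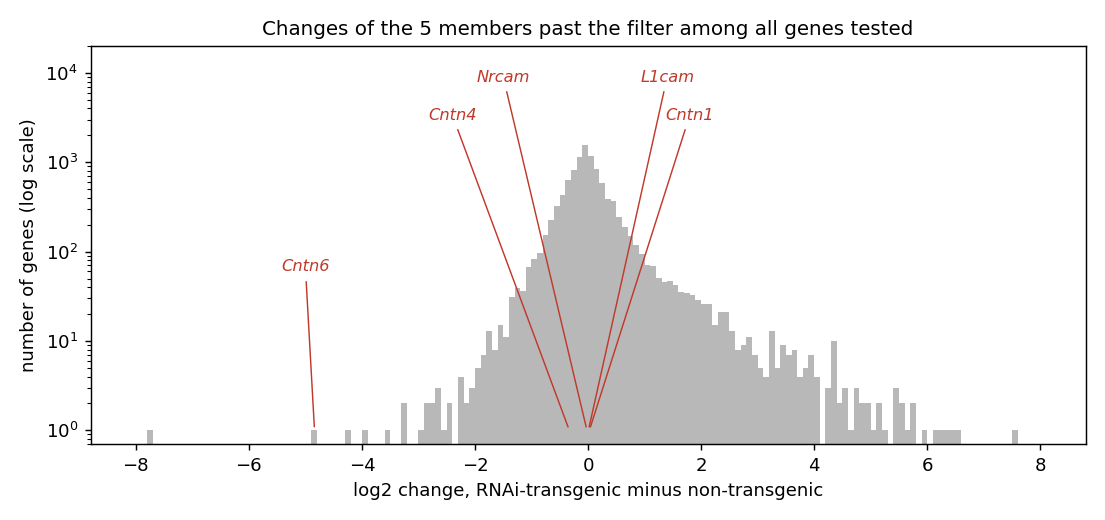
Distribution of the fitted log2 change, RNAi-transgenic minus non-transgenic, over 10590 genes in bins on a log count axis, with the 5 genes past the filter marked. Cntn6 is at -4.84 as fitted, against transgenic values near background, Cntn4 at -0.33, and Nrcam, L1cam and Cntn1 are between -0.02 and 0.02.

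None of the genes flanking Cntn6 that passed the filter had a comparable difference. Of the 3 protein-coding genes on each side, Cntn3, Chl1 and Il5ra did not pass the filter, and Cntn4 had the values above. Pdzrn3, which encodes a ubiquitin ligase and lies beyond Cntn3, was higher, at 10.51 in transgenic and 9.87 in non-transgenic oocytes (change 0.64, limma adjusted p = 0.00108). Trnt1, which encodes the enzyme that adds the CCA end to transfer RNAs, was at 11.84 in transgenic and 11.38 in non-transgenic oocytes (change 0.46, limma adjusted p = 0.0169), with groups that overlapped. A dimmer Trnt1 probe set gave -0.11 (limma adjusted p = 0.544 over probe sets), so its probe sets disagree. Of all genes tested, 18.9% were higher and 18.3% lower.

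**Figure D4:**
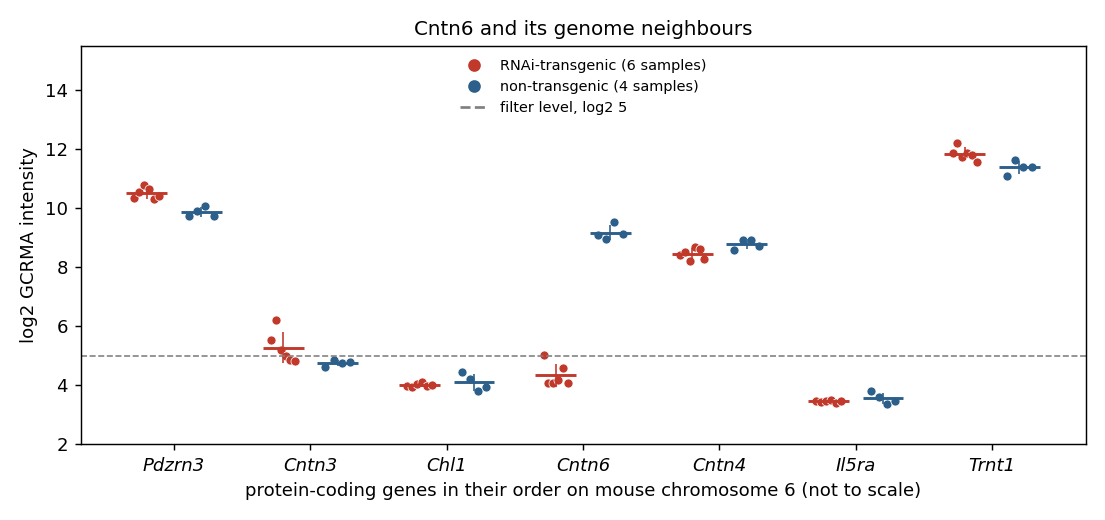
Log2 GCRMA intensity of Cntn6 and of the 3 protein-coding genes on each side, in their order on chromosome 6 and not to scale. Points are single samples, RNAi-transgenic left and non-transgenic right of each tick, bars are means and SD, and the dashed line is the filter level. Cntn6 is at 4.34 in transgenic and 9.17 in non-transgenic oocytes, and Pdzrn3 at 10.51 in transgenic and 9.87 in non-transgenic oocytes.

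The genes whose values ran most like Cntn6 over the 10 samples were Gipc2 (Pearson r = 0.993), Macf1 (0.992), Bnc1 (0.991), Plxdc2 (0.991) and Tub (0.990). The most opposite were Hrh1 (-0.996), Cystm1 (-0.995), Pltp (-0.991), Btg2 (-0.991) and Gldc (-0.991). The samples fall into their 2 groups, so these values mostly measure the same split between transgenic and non-transgenic oocytes, and no p is given. Gipc2 changed by -1.75 and Macf1 by -1.42, while Plxdc2 and Tub, like Cntn6, averaged below log2 5 in transgenic oocytes, so that their differences have no exact size. Closest to Cntn4 were Tmed5 (0.951), Dhx32 (0.947) and Troap (0.941), and to Cntn1 Gsto1 (0.935), Fry (0.877) and Naa30 (0.873). Closest to Nrcam were Akap9 (0.910), Sertad3 (0.888) and Dcaf12 (0.888), and to L1cam Rflnb (0.927), Fcgr2b (0.916) and Cd82 (0.911). All these are the highest values among all genes tested, over only 10 samples. Such a choice favours high values by itself, so no shared regulation is read from them.

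Partners and relatives of these molecules were followed in 4 lists. Over all of them 48 of 104 genes on the array were tested, of which 5 rose, 7 fell and 36 did not pass in limma. After quantile normalization 4 were higher and 10 lower, against 1906 higher and 2251 lower of 10590 genes in that setting. In the main fit the median change of the 48 was -0.04, against -0.03 over all genes tested. There 18.9% of all genes tested were higher and 18.3% lower.

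Of 10 tested genes listed as contactin partners, 2 rose, 0 fell and 8 did not pass, with a median change of 0.05. An unadjusted p below 0.05 in limma was found for 4 of 10, against 4869 of 10590 genes in all. Binding of any of them to a contactin was not tested here, and a place in the list does not show it. Ptprd, a receptor tyrosine phosphatase of synapses, was at log2 9.94 ± 0.25 (SD, n = 6) in transgenic and 6.43 ± 0.99 (SD, n = 4) in non-transgenic oocytes, a rise of 3.50 (SE 0.36, limma adjusted p = 2.19e-05). All its transgenic values, from 9.68 to 10.28, were above all non-transgenic ones, from 5.37 to 7.40, and its other probe sets past the filter rose by 2.69 and 1.98. Aplp2, of the amyloid precursor family, rose by 0.53 (limma adjusted p = 0.00218) in a probe set whose name also ends in _x_at. Its other 4 probe sets gave differences from 0.00 to 0.65. The next brightest gave 0.20 (limma adjusted p = 0.114 over probe sets), and the one at 0.65 passed (0.00493). Ptprg, a phosphatase known to bind several contactins, Cntn6 among them, was at 9.82 ± 0.15 (SD, n = 6) in transgenic and 9.71 ± 0.34 (SD, n = 4) in non-transgenic oocytes (limma adjusted p = 0.600). Notch1 was at 7.48 ± 0.15 (SD, n = 6) in transgenic and 7.37 ± 0.23 (SD, n = 4) in non-transgenic oocytes (limma adjusted p = 0.534). Ptprz1, a partner of contactin 1, was at 6.02 in both groups. Cntn2, the remaining contactin gene, was at 5.73 ± 0.15 (SD, n = 6) in transgenic and 6.03 ± 0.22 (SD, n = 4) in non-transgenic oocytes (limma adjusted p = 0.0641).

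Of 18 tested partners of L1-type and NCAM proteins, 2 rose, 4 fell and 12 did not pass, with a median change of -0.04. Over all genes tested 18.9% were higher and 18.3% lower, so the counts are not read as a result about this list. Plxna4, a plexin that carries semaphorin signals into the cell, fell to 9.20 in transgenic, against 9.93 in non-transgenic oocytes (change -0.74, limma adjusted p = 0.000144), while a dimmer probe set gave -0.09 (adjusted p = 0.461 over probe sets). Fgfr2, a fibroblast growth factor receptor, rose by 0.51 (limma adjusted p = 0.00134). Plxna2 changed by -0.41, the membrane linker Msn by -0.55, the GDNF receptor Gfra1 by -0.50 and Ank3, an ankyrin, by 0.46 (limma adjusted p from 0.0255 to 0.0464). These 4 calls were not stable when single samples were left out. Ank3 lost its call without any 1 sample except non-transgenic replicate 7 or transgenic replicate 6 (adjusted p from 0.0682 to 0.125), and Gfra1 without any except non-transgenic replicate 1 or 8 (0.0501 to 0.0699). Msn lost it without non-transgenic replicate 1, 7 or 8 or transgenic replicate 4, 5, 11 or 12 (0.0523 to 0.0924), and Plxna2 without non-transgenic replicate 1, 2 or 7 or transgenic replicate 13 (0.0538 to 0.0717). Another Plxna2 probe set gave 0.76 and another Gfra1 probe set 0.12, against the direction of the main ones. Among the rest, Rdx, which links membrane proteins to actin, was at 14.90 in transgenic and 14.94 in non-transgenic oocytes, and the kinase Fyn at 12.03 in transgenic and 12.02 in non-transgenic oocytes.

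**Figure D5:**
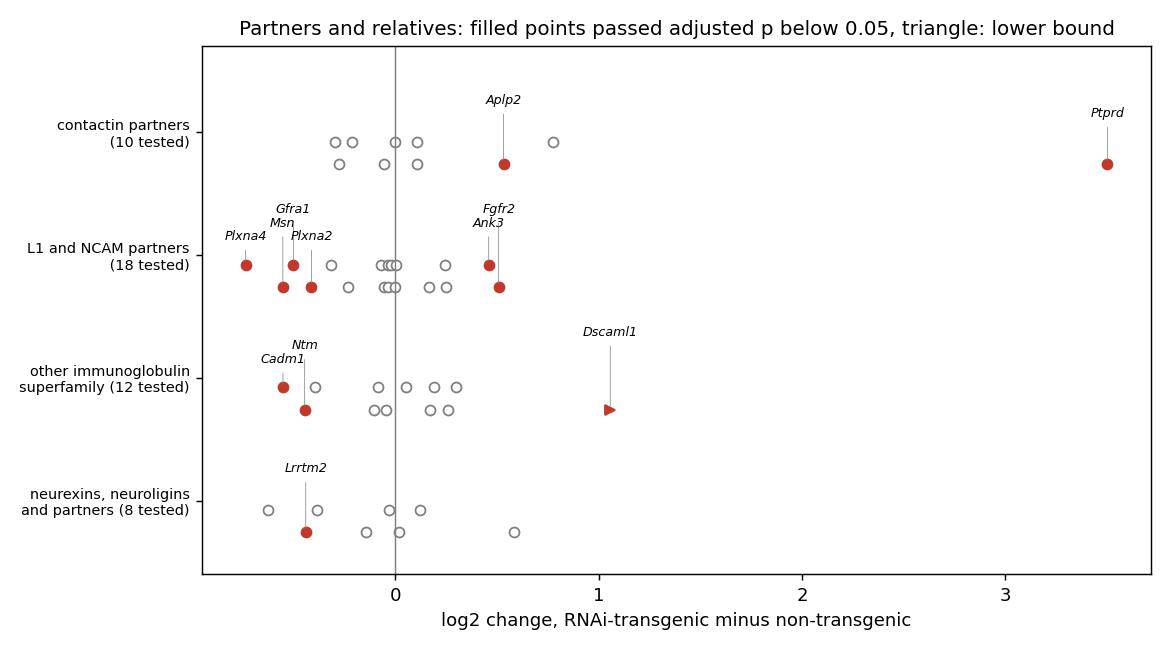
Log2 change, RNAi-transgenic minus non-transgenic, of every tested gene of the 4 related lists. Filled, named points passed an adjusted p below 0.05 in limma and open ones did not. The triangle stands for Dscaml1 at its lower bound, 1.06, since its non-transgenic samples were all below log2 5, and Ptprd lies farthest to the right, at 3.50.

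Of 12 tested genes for other neural adhesion molecules with immunoglobulin domains, 1 rose, 2 fell and 9 did not pass, with a median change of 0.00. Over all genes tested 18.9% were higher and 18.3% lower. Dscaml1, a relative of the Down syndrome cell adhesion molecule, was between 5.14 and 6.71 in transgenic and between 2.87 and 3.31 in non-transgenic samples. All 6 transgenic samples exceeded log2 5 and no non-transgenic one did, which makes Dscaml1 at least 2.08-fold higher. It passed the filter only through the transgenic group and so had to differ, and its place among the genes counted as higher is a description. Cadm1 changed by -0.55 (limma adjusted p = 0.0193) and Ntm by -0.45 (0.0217). Leaving out non-transgenic replicate 7 ended the calls of Cadm1 (adjusted p = 0.0577) and Ntm (0.0617), and leaving out replicate 8 that of Ntm (0.0647). Further probe sets past the filter gave 0.01 and -0.35 for Cadm1 and 0.04 for Ntm. Nectin3, of cell junctions, was at 12.40 in transgenic and 12.35 in non-transgenic oocytes, and the netrin receptor Neo1 at 13.27 in transgenic and 13.01 in non-transgenic oocytes, and neither passed. Of 8 tested neurexins, neuroligins and their partners, 0 rose, 1 fell and 7 did not pass, with a median change of -0.09. An unadjusted p below 0.05 in limma was found for 3 of 8, against 4869 of 10590 genes in all. Lrrtm2, a postsynaptic adhesion protein, changed by -0.44 (limma adjusted p = 0.0130). Nlgn1 was at 7.30 ± 0.27 (SD, n = 6) in transgenic and 7.92 ± 0.55 (SD, n = 4) in non-transgenic oocytes (limma adjusted p = 0.0516).

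Markers were used to check what the samples held. The counts of markers called stand against 18.9% higher and 18.3% lower over all genes tested. All 15 oocyte markers passed the filter, with 1 higher and 2 lower and sums of 218400 to 261300 in transgenic and 225200 to 240100 in non-transgenic samples, and Zp3, of the egg coat, was at 14.59 in transgenic and 14.61 in non-transgenic oocytes. Of 14 neuron markers, 10 were below log2 5 in every sample, among them Snap25, Syp, Rbfox3, Nefl and Dcx. The summed intensity of the neuron markers was 3084 to 4323 in transgenic and 3490 to 3891 in non-transgenic samples. Of 4 tested, 2 rose, Elavl3 by 0.60 and Map2 by 0.97, and 0 fell. The brightest were Tubb3, at 11.08 in transgenic and 11.31 in non-transgenic oocytes, and Elavl3, at 10.2 in transgenic and 9.6 in non-transgenic oocytes. Syt1 was at 6.92 in transgenic and 6.94 in non-transgenic oocytes. Of 8 glia markers on the array 4 were below the level everywhere, among them Gfap and Aqp4, with sums of 382.8 to 758.6 in transgenic and 320.6 to 522.7 in non-transgenic samples, and 1 of 3 tested was higher, Olig2, which passed the filter only through the transgenic group. Of 17 granulosa and cumulus markers 6 were below the level everywhere, with sums of 1847 to 3012 in transgenic and 1864 to 2120 in non-transgenic samples. Of 10 tested, 2 were higher, Fshr by 1.24 and Cyp11a1 by 1.57, and 0 lower. The median change of the 10 was 0.44, against -0.03 over all genes tested. The brightest, Nr5a2, was at 9.87 in transgenic and 9.94 in non-transgenic oocytes. Of 10 blood and immune markers 6 were below the level everywhere, and all summed to 2915 to 4563 in transgenic and 3482 to 4349 in non-transgenic samples, with 1 higher and 1 lower of 4 tested. For stroma, theca and vessels, 9 of 13 were below the level everywhere, 2 were higher and 1 lower of 3 tested, and the sum was 319.3 to 393.5 in transgenic and 229.1 to 296 in non-transgenic samples. The groups did not overlap in this last sum. The same held for 28% of all single genes tested, and no such share was computed for sums. The part of other cells in the differences above was not tested.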

How the data were processed

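Expression was measured on 1 array per sample in 6 RNAi-transgenic and 4 non-transgenic oocyte samples. The authors deposited 1 intensity per probe set and array, made with GCRMA per the submitters' processing notes. GCRMA, of unstated version, estimates background from probe sequences and draws dim probe sets toward a floor. These linear values, all positive, were taken to log2 with no new normalization. The platform annotation gave 34945 of 45101 probe sets 1 gene, of which 34741 matched a RefSeq (GRCm38.p6) gene number. No build is named for the arrays.

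Groups were compared with limma 3.58.1 (lmFit, eBayes with a trend) in R 4.3.3, on the brightest probe set of each gene above log2 5 in at least 4 arrays. The fit was tested on simulated data. Intervals are 95% from that fit. Single values were also compared by an exact permutation test over 210 splits, which cannot give a p below 0.00476. Named genes are all 10 members, up to 3 higher and 3 lower genes of each related list, genes most like a member, and the neighbours of Cntn6. Gfra1, Ptprg, Notch1, Ptprz1, Cntn2, Rdx, Fyn, Nectin3, Neo1, Nlgn1 and the markers were named after their values were seen. Members and lists were chosen with earlier results of these data known. Nothing in the labels says how mice relate, and the number of arrays limits the precision. Alternatives were other filters, scalings, variance models, probe set rules, number ranges and each sample left out. Figures were drawn with matplotlib 3.10.9.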

Additional observations from a re-analysis of the deposited data

How the results depend on the processing

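Cntn6 kept its direction under all alternatives run. It was chosen for this decrease and its groups lie 3.92 apart, so this could hardly come out otherwise and adds no support. Its difference ran from -4.98 to -4.72 with a sample left out and from -5.04 to -4.02 otherwise, the smallest with log2(value + 16), which by construction shrinks dim values. The count of called members other than Cntn6, which was 0, was 1 (Cntn4) with a filter level of log2 7, quantile normalization, eBayes without a trend, array weights and the mean of probe sets, and 0 to 1 with a sample left out. Cntn4 stayed below 0 in all of these, between -0.40 and -0.28, while Cntn1, Nrcam and L1cam, close to 0, changed sign without a call. In the related lists, 5 higher and 7 lower genes were called, with 4 to 6 higher and 2 to 7 lower when a sample was left out, the 2 being without non-transgenic replicate 7. Lower genes numbered 2 in samples 1 to 6, 3 in samples 7 to 13, 3 with the mean of probe sets, 1 at adjusted p below 0.01 and 0 at 2-fold. Higher ones numbered 3 in samples 7 to 13 and 2 at 2-fold. The higher genes of the main fit and those at 2-fold include Dscaml1. It passed the filter only through the transgenic group and so had to differ. Counts also grew, to 10 lower (4 higher) with quantile normalization, 9 lower with no filter, and 7 higher with the mean of probe sets or each probe set by itself. These subsets hold fewer samples, and the cause of the other losses was not tested. Over all genes 1998 were higher and 1942 lower, against 1207 and 706 in samples 1 to 6 and 1241 and 1023 in samples 7 to 13. They were 1906 and 2251 with quantile normalization, 2001 and 1959 with the mean of probe sets, and 1902 and 1851 of 18193 with no filter. Each probe set by itself gave 2936 and 2776 of 16807, and leaving out non-transgenic replicate 7 gave 1921 and 1564. Such counts at adjusted p below 0.01 and at 2-fold are not given here. No paired analysis was possible because the groups share no replicate number. Values near log2 5 lie close to background, which limits Cntn6 in transgenic oocytes, L1cam and all members below the filter.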
